A study of Mus musculus with 18 samples.

Results

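The 10 organoid samples given an adrenergic agonist were compared with the 8 samples given a vehicle, which are all 18 samples of the series, to measure the response shared by norepinephrine and UK14,304. The members were chosen by treatment alone. Every gene of the count table entered the filter on low counts, and 14605 of 55487 genes were tested. The organoids were cultures of mouse small intestinal epithelium of WT genotype, established from female C57BL/6 mice, and each sample was treated for 4 days. The agonist arm held 5 samples with norepinephrine at 1 µM and 5 samples with UK14,304 at 1 µM. The vehicle arm held 4 samples with HCl, the vehicle of norepinephrine, and 4 samples with DMSO, the vehicle of UK14,304. Titles carry a replicate number from m1 to m5, whose meaning the labels do not spell out, so p-values measure the spread between these samples, which may be technical. The replicate number was kept as a block, so that agonist and vehicle were compared within a number. Number m5 had no vehicle sample and therefore added to the estimate of the spread but not to the difference, which rests on the 4 numbers m1 to m4.

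Norepinephrine is the transmitter of sympathetic nerves and acts on α- and β-adrenergic receptors, whereas UK14,304, also called brimonidine, is an agonist selective for α2 receptors. These receptors couple to inhibitory G proteins and lower cyclic AMP. Organoids hold the epithelial cell types of the crypt and villus without nerves: stem cells at the crypt base, Paneth cells that sit between them and secrete defensins and lysozyme, mucus-secreting goblet cells, hormone-secreting enteroendocrine cells, tuft cells and absorptive enterocytes.

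The samples were those of an epithelium. The 8 epithelial markers, which include Epcam and Cdh1, summed to between 7700 and 8370 CPM (counts scaled to library size with TMM factors) in vehicle samples and between 7500 and 8020 CPM in agonist samples, and none of the 8 was called. The 6 fibroblast markers summed to at most 0.392 CPM in vehicle samples and 0.56 CPM in agonist samples, with Dcn at 0 in all samples. The summed levels of the 5 immune markers, 2.57 to 3.36 CPM against 2.32 to 3.84 CPM, and of the 6 endothelial and neural markers, 2.06 to 3.34 CPM against 1.87 to 3.34 CPM, overlapped between the arms. Adra2a, which encodes the α2A receptor, had vehicle levels of 25.3, 29.6 and 30.8 CPM (lowest, median and highest) and agonist levels of 24.6, 27.6 and 29.8 CPM. Its difference was not called, at a log2 fold change of -0.03 ± 0.0435 (SE) and an adjusted p of 0.729 from edgeR.

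Libraries held between 21866149 and 27850373 counts. The gene of a ribosomal RNA took over 1% of the counts in 3 of 10 agonist and 4 of 8 vehicle libraries. The agonist libraries were norepinephrine m4 (1.98%) and m5 (1.83%) and UK14304 m1 (1.97%). The vehicle libraries were DMSO m1 (2.41%), m2 (2.61%) and m3 (3.06%) and HCl m4 (2.02%). In m2 and m3 the DMSO libraries were thus over 1% and the UK14304 libraries under it, at 0.529% and 0.619%. Norepinephrine and HCl lay on the same side of 1% in each of m1 to m4. The slope of log2 level on GC content, in log2 units per 10 percentage points of GC, was -0.048 ± 0.116 (SD, n = 10) in agonist and 0.0599 ± 0.0469 (SD, n = 8) in vehicle libraries. It differed by -0.102 on average within the numbers m1 to m4, with p = 0.0602 in an exact two-sided permutation test whose smallest possible p is 0.00154. The norepinephrine library of m4 had the highest slope of all 18, at 0.196, and the counts of called genes are therefore also given without it. Genes called higher with agonist had a median GC content of 45.1% and genes called lower one of 53.2%, against 49.6% over tested genes. The fit was repeated with the GC trend of each library removed.

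Agonist treatment lowered Paneth cell transcripts, and Defa29, Gm14851 and Mptx2 had the lowest p-values of the 14605 genes. In edgeR's quasi-likelihood test with Benjamini-Hochberg adjustment, 282 genes passed an adjusted p of 0.05, which is 1.93% of those tested. Of these, 204 genes were lower (1.4%) and 78 were higher (0.534%) with agonist. The differences were small. Their median size was 0.2 on the log2 scale, and 25 of the 282 reached 0.5. In 281 of the 282 the mean difference had one sign in each of m1 to m4, against 40.3% of tested genes, and the exception was Thbs1. The genes were called from these same samples with the number as a block. A shared sign therefore follows largely from the selection and is no separate support. The levels of the arms did not overlap in 6 called genes, Spink4, Reg4 and Hic2 being lower and Txnip, Mertk and Greb1l higher, beside 0.0479% of tested genes.

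For the pooled agonist effect the count of 282 depended on the block and on single libraries. Without the replicate block 13 genes were called, 5 higher and 8 lower. Without the norepinephrine library of m4 it was 3865, and without the UK14,304 library of m2 it was 67. Without the UK14,304 library of m4, 41 genes were called higher and 127 lower. With the GC trend removed 662 genes were called, 279 higher and 383 lower, and 230 of the 282 were among them. A set of 15 genes stayed below the threshold in DESeq2, after removal of the GC trend, with the ribosomal RNA split as a factor and without each of m1 to m4. These were Defa3, Defa21, Defa22, Defa26, Defa29, Defa30, Defa-ps6, AY761184, Gm14851, Gm15292, Lyz1, Mptx2, Reg4, Acta1 and Lamb1, and each of them was lower with agonist. Without the replicate block 5 of the 15 were called, Defa3, Defa29, Defa-ps6, Gm15292 and Reg4, and the other 10 were not.

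**Figure D1:**
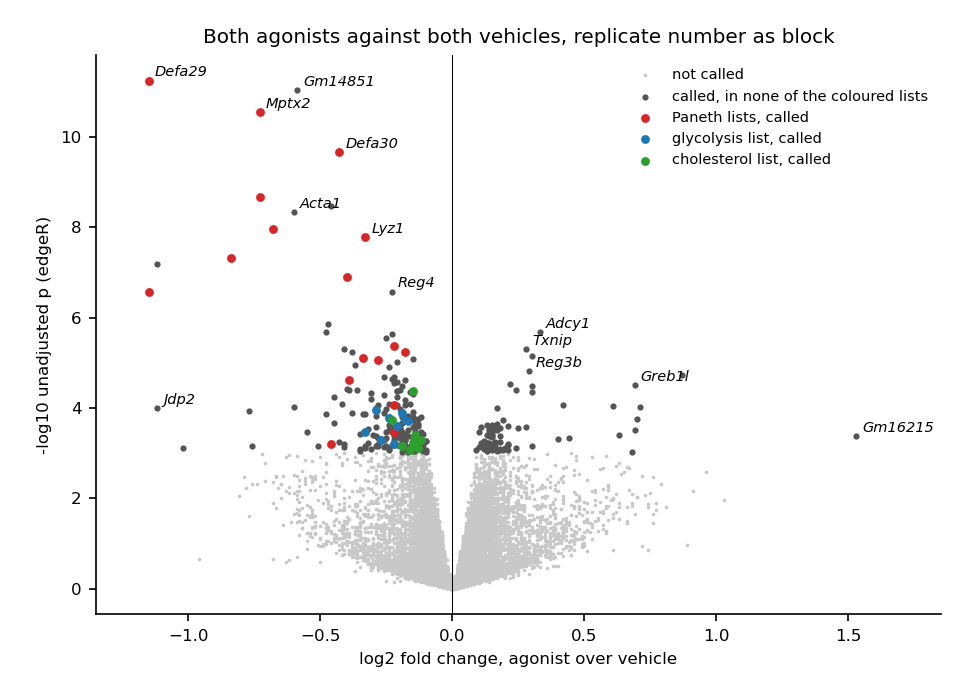
Log2 fold change of agonist over vehicle (x) against -log10 of the unadjusted p from edgeR (y) for each of the 14605 tested genes, with 282 called genes in dark or coloured points. The called genes of the Paneth lists (red) all lie left of 0, and Defa29, at -1.15, has the lowest p of all.

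The α-defensins are antimicrobial peptides stored in Paneth cell granules, and their genes form a cluster on chromosome 8. Of 39 α-defensin genes and pseudogenes listed, 12 passed the filter, 10 of the 12 fell and none rose. The median log2 fold change of the 12 was -0.68, against 0 over all tested genes, and each of the 12 was below 0. The other 27 lay at or below 0.609 CPM in every sample. Many of these genes are near copies of each other. Over at least 50 bp at 95% identity or more, Defa21 matched Defa22, and Defa29 matched 7 other genes, AY761184, Gm14851, Defa3 and Defa17 among them. Reads of 50 bp that fit more than one gene were not counted, so single members may share or lack reads, and their separate values are uncertain.

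Promoter sequence is shown for genes that fell together and for 1 that rose, to let their start regions be compared. Promoters are those of RefSeq on GRCm38.p6, cut to the 250 bases upstream of the start and printed on the gene's strand, and 213 of the 282 called genes had one. Capitals mark the matches on either strand to CTTTGAT, the core read by TCF factors of the Wnt pathway, to TATAAA, to TGANTCA, to CACGTG and to the CArG box bound by Srf. These were held by 3.21%, 12.4%, 6.75%, 6.02% and 1.47% of the 32851 promoters in the table, in that order. In Defa30 the CArG match covers the TATAAA match.
Defa21 (chr8:21025295-21025544, + strand): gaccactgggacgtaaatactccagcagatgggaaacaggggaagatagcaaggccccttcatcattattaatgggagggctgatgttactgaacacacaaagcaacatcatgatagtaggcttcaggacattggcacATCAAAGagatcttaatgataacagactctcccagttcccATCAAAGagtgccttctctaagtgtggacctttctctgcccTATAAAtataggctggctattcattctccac
Defa30 (chr8:21134400-21134649, + strand): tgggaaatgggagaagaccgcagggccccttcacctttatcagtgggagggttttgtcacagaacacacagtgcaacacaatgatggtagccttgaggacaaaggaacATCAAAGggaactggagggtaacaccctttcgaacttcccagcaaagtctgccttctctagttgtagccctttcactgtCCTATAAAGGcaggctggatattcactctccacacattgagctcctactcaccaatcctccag
Lyz1 (chr10:117292869-117293118, - strand): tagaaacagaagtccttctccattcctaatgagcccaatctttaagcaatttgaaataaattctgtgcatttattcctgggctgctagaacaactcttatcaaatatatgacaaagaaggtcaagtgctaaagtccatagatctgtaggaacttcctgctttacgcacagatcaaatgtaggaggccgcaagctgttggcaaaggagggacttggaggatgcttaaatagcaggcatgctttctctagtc
Acta1 (chr8:123894776-123895025, - strand): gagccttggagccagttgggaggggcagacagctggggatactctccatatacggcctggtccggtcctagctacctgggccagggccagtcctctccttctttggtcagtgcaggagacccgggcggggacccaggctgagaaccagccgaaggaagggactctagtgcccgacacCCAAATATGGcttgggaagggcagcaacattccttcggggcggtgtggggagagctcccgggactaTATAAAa
Txnip (chr3:96557707-96557956, + strand): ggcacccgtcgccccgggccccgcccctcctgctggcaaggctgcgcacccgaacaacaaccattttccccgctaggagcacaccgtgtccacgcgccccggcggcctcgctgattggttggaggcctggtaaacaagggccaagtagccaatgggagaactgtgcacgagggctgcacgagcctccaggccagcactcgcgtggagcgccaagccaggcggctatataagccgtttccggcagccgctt
The Defa22 promoter was identical to that of Defa21 over all 250 bases, whereas Defa30 shared 61.8% of aligned positions with both. CTTTGAT was found at 2 places upstream of Defa21 and at 1 upstream of Defa30. The CArG box was found upstream of Acta1 and Defa30. Upstream of Lyz1 and Txnip none of the 5 motifs was found. The same held for Mptx2 and Reg4, which fell and whose promoters are not printed. Reg3b, which rose and is not printed either, had a match to TATAAA only.

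Defa29 had the lowest p of the defensins. Its level was 8.32, 16.1 and 17.9 CPM (lowest, median and highest) in vehicle samples and 3.91, 7.71 and 8.94 CPM in agonist samples. The vehicle sample with DMSO at m2 was the one that reached into the agonist range. Defa29 (chr8:21325887-21327020) fell to 0.451 of the vehicle level, at a log2 fold change of -1.15 ± 0.0823 and an adjusted p of 6.78e-08 from edgeR. Within numbers its difference was -0.93, -1.28, -1.21 and -1.2 on the log2 scale in m1, m2, m3 and m4.

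Defa21 and Defa22, whose promoters were identical, fell by 0.73 and 0.68 on the log2 scale (adjusted p of 6.05e-06 and 1.96e-05). Defa21 ranged from 11.2 to 47.1 CPM in vehicle and from 7.59 to 26.5 CPM in agonist samples, so that the arms overlapped widely while every number fell. Defa3 fell by 0.84 ± 0.101 and the pseudogene Defa-ps6 by 1.15 ± 0.153, the latter from a vehicle median of 2.71 CPM to 1.27 CPM. Defa30 fell by 0.43 ± 0.0377 (adjusted p = 7.89e-07), from a vehicle median of 186 CPM to 142 CPM, and Defa26 by 0.4.

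Defa24 had 925, 1220 and 1400 CPM in vehicle and 801, 1060 and 1200 CPM in agonist samples. It fell by 0.22 ± 0.0449 (adjusted p = 0.0183), and Defa17 fell by the same 0.22 (adjusted p = 0.0351). Defa34 fell by 0.46 ± 0.115. The other 2 of the 12, Defa28 and Defa-ps1, had log2 fold changes of -0.68 and -0.78 at levels of at most 1.54 CPM, and their adjusted p of 0.0822 and 0.0915 missed the threshold. Summed over the list, defensin counts lay between 1180 and 1850 CPM in vehicle and between 1000 and 1550 CPM in agonist samples.

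Genes without a Defa symbol in the same stretch were called too. Between the first and the last α-defensin gene, chr8:19210462-21750000, 23 genes were tested, 13 were called lower and none higher. Gm14851, AY761184 and Gm15292, which are near copies of listed defensins, were the 3 called genes there outside the list. Gm14851 fell from a vehicle median of 54.8 CPM to 37.3 CPM, at -0.59 ± 0.0437 (adjusted p = 6.78e-08). AY761184 fell by 0.46 ± 0.0461 and Gm15292 by 1.12 ± 0.137. In this bulk RNA fewer Paneth cells and less of these transcripts per Paneth cell cannot be told apart.

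Of 10 further Paneth cell genes, 7 fell and none rose, with a median log2 fold change of -0.26. Lyz1, which encodes the lysozyme of Paneth granules, had 1070, 1560 and 1820 CPM in vehicle and 920, 1250 and 1410 CPM in agonist samples. In Lyz1 the lowest sample of each treatment was its m2 sample, and the arms overlapped, while Lyz1 was lower with agonist in each of m1 to m4. It fell by 0.33 ± 0.0371 (adjusted p = 2.61e-05 from edgeR). Lyz1 (chr10:117287797-117292868) shares stretches with Lyz2, so that reads in common were not counted.

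Mptx2, a mucosal pentraxin of Paneth cells, fell more strongly, from a vehicle median of 30.3 CPM to 17.9 CPM. Its log2 fold change was -0.73 ± 0.057 (adjusted p = 1.36e-07), with levels of 14.3 to 39.3 CPM in vehicle and 8.6 to 23.6 CPM in agonist samples. The antimicrobial ribonuclease gene Ang4 fell by 0.28, the gene of the defensin-activating protease Mmp7 by 0.22, the intelectin gene Itln1 by 0.18, the colipase gene Clps by 0.39 and the secreted phospholipase gene Pla2g2a by 0.34. Their adjusted p lay between 0.00314 and 0.00929. The gene annotation lists Pla2g2a as a polymorphic pseudogene, so its value is one of transcript only. Nupr1 (-0.24, adjusted p = 0.0742), Habp2 (-0.11) and Mptx1 (0.01) were not called.

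These Paneth counts varied less than the total when single samples were left out. With each of the 18 samples left out in turn, between 8 and 12 of the 12 defensins and between 7 and 8 of the 10 other genes were called lower. With the GC trend removed the counts were 10 and 7. Without the replicate block 3 and 0 were called, with medians of -0.63 and -0.25. Without the samples of m1, m2 or m3 the defensin count was 7 each time and the other count was 6, 5 and 2.

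**Figure D2:**
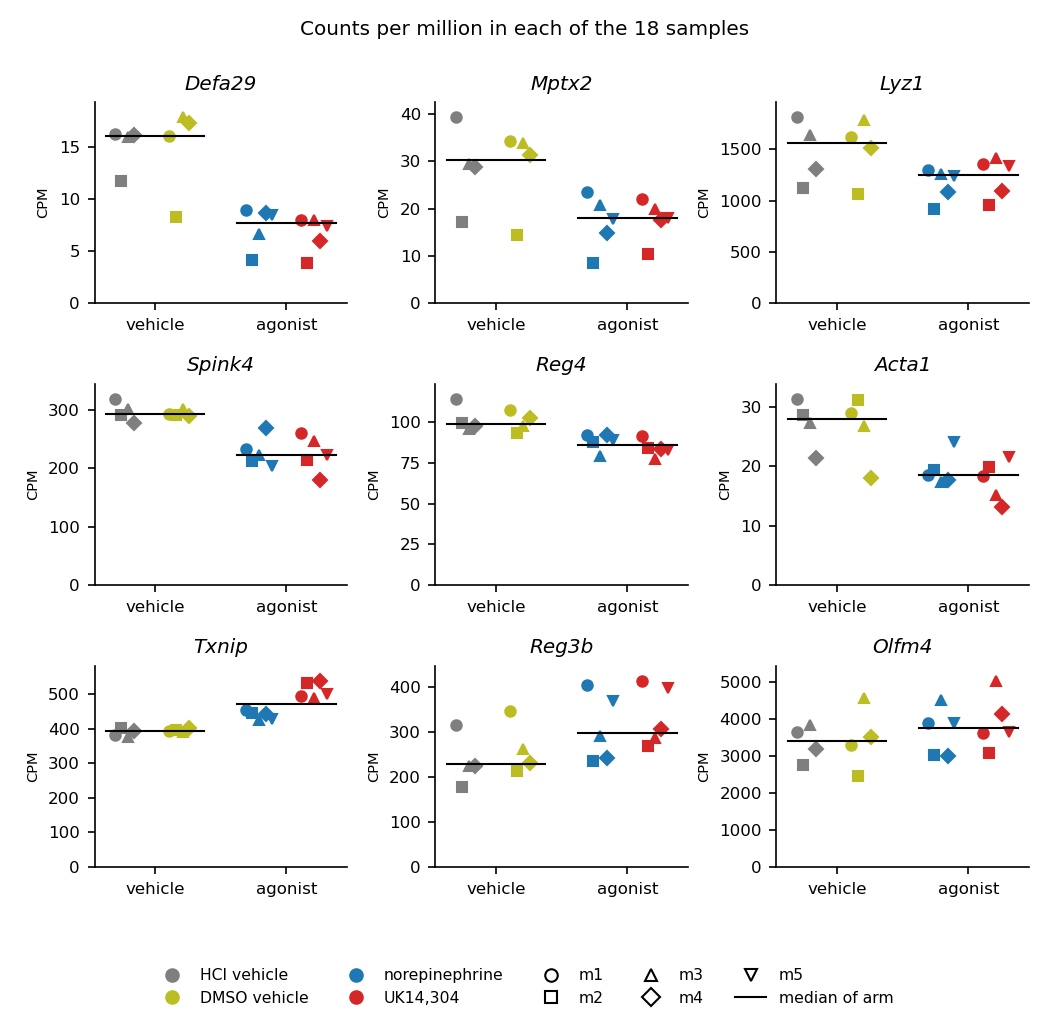
CPM (y) of 9 genes in each of the 18 samples by arm (x), coloured by treatment, with the marker shape giving the replicate number and the line the median of the arm. Defa29, Mptx2 and Lyz1 lie lower in the agonist arm with m2 lowest in each treatment, Spink4, Reg4 and Txnip do not overlap between the arms, and Olfm4 overlaps almost wholly.

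Of 12 goblet cell markers, 3 fell and none rose, and the median log2 fold change was -0.14. Spink4, a small secreted peptidase inhibitor of goblet cells, had 278, 293 and 319 CPM in vehicle and 181, 223 and 270 CPM in agonist samples, with no overlap. It fell by 0.37 ± 0.0593 (adjusted p = 0.00538). Agr2, which encodes a disulfide isomerase needed for mucin folding, fell by 0.15 and the transcription factor gene Creb3l1 by 0.19 (0.11 with the GC trend removed). Muc2, which encodes the main gel-forming mucin, was not called, with vehicle levels of 221, 259 and 307 CPM and agonist levels of 224, 274 and 326 CPM (log2 fold change 0.06 ± 0.0633, adjusted p = 0.553). The trefoil factor gene Tff3 differed by -0.2 ± 0.0581 and missed the threshold at an adjusted p of 0.0737. Without number m2 or m3 none of the 12 was called, and without m1 only 1, with medians of -0.14, -0.12 and -0.16. Over all tested genes these fits called 18 of 14554, 19 of 14569 and 35 of 14587 lower. Without the norepinephrine sample of m4 the goblet count was 8, in a fit that called 1718 of 14540 genes lower.

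The Reg family of secreted lectins moved in both directions. Of 6 tested members Reg3b was higher and Reg4 was lower. Reg3b, an antibacterial lectin of enterocytes, had 177, 228 and 346 CPM in vehicle and 235, 297 and 413 CPM in agonist samples. The arms overlapped, since the numbers differ in level, and Reg3b rose within each number, by 0.29 ± 0.0502 (adjusted p = 0.00699). Reg4, expressed in secretory cells of the crypt, had 93, 98.6 and 114 CPM against 77.4, 86 and 91.8 CPM without overlap and fell by 0.23 ± 0.0311 (adjusted p = 0.000284). Reg3g (0.14, adjusted p = 0.212), Reg3a (0.02) and Reg1 (0.04) were not called.

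No marker of the other cell types was called. This held for all tested members of the lists of stem cell and Wnt genes (16), enterocyte (16), enteroendocrine (14) and tuft cell genes (9), whose medians were 0.01, 0.04, -0.05 and 0.07 on the log2 scale. Over all tested genes 1.93% were called, so lists of this size would hold few calls in any case. Lgr5, the receptor that marks crypt base stem cells, differed by 0.02 (adjusted p = 0.781), with 166 to 211 CPM in vehicle and 164 to 216 CPM in agonist samples. Olfm4, another stem cell gene, had 2450, 3400 and 4570 CPM against 2980, 3760 and 5030 CPM, a log2 fold change of 0.15 ± 0.0582 and an adjusted p of 0.133. Bmi1 (0.16, adjusted p = 0.192) did not pass either. Among 17 chaperones of the endoplasmic reticulum and 11 genes of interferon response and MHC, none was called either. After removal of the GC trend 2 of the 16 stem cell and Wnt genes were called higher.

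Of 24 proliferation genes 2 rose and none fell, beside a median of 0.03. Mki67, the gene of the Ki-67 antigen, had 706, 762 and 859 CPM in vehicle and 753, 858 and 920 CPM in agonist samples. It rose by 0.14 ± 0.0338 (adjusted p = 0.044). Top2a, which encodes topoisomerase II alpha, rose by 0.15 ± 0.0356 (adjusted p = 0.038). Pcna (-0.05), Mcm2 (-0.01), Cdk1 (0.01), Birc5 (-0.01) and Aurka (-0.08) were not called, and both calls were lost with the ribosomal RNA split as a factor, at adjusted p of 0.103 and 0.0891. Of the 24, 9 were called higher without the norepinephrine sample of m4, 7 without number m4, and 0 without m1, m2 or m3 or without the replicate block. Of genes kept from the main test, 2147 of 14540 were called higher without that norepinephrine sample and 851 of 14554 without number m4. Without m1, m2 or m3 only 3 of 14587, 3 of 14554 and 2 of 14569 were called higher. With the GC trend removed 2 of the 24 were called higher and 1 lower, with Top2a at 0.08 and Mki67 at 0.1. Mki67 was not called with the length trend removed (0.09, adjusted p = 0.0806).

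**Figure D3:**
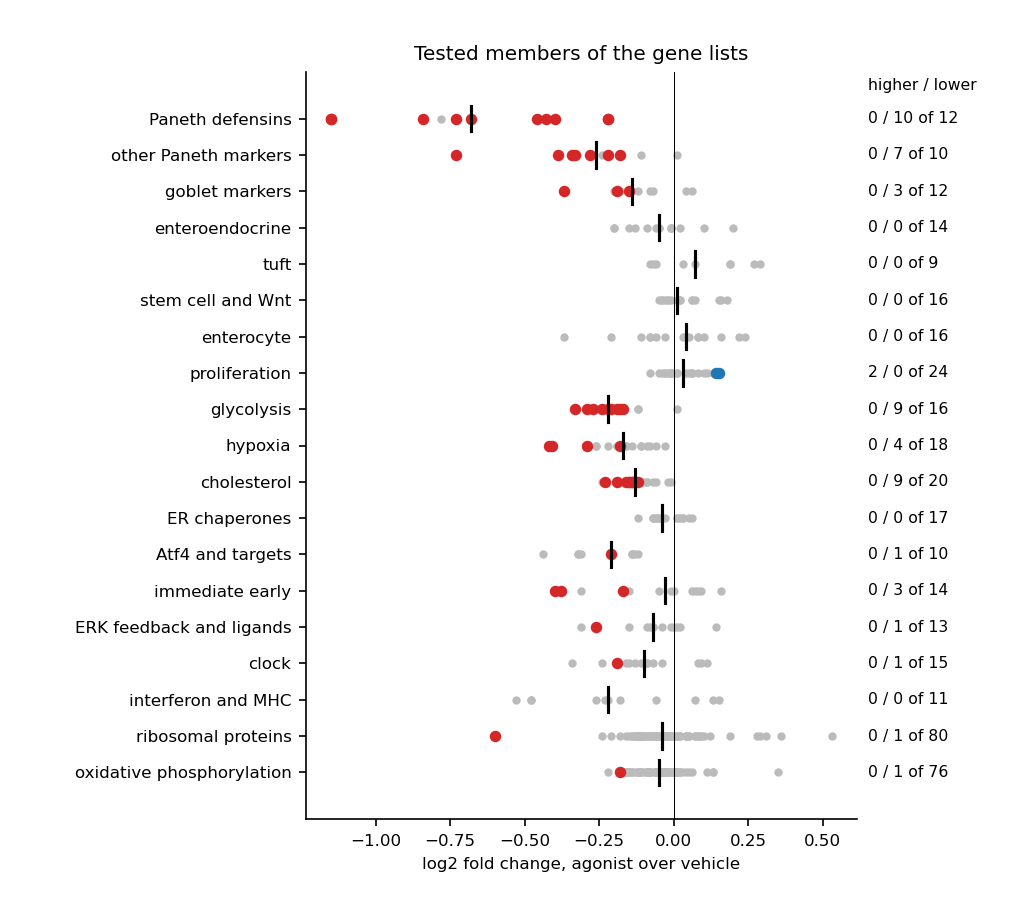
Log2 fold change (x) of each tested member of 19 gene lists (rows), with called genes in red (lower) or blue (higher), other members in grey and a black bar at the median. The numbers at the right give members called higher and lower of those tested, 0 and 10 of 12 for the Paneth defensins and 2 and 0 of 24 for proliferation.

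Genes of sugar metabolism formed a further group of falls. Of 16 glycolysis genes 9 fell and none rose, with a median log2 fold change of -0.22, and 15 of the 16 lay below 0. Hexokinase 1 (Hk1) fell by 0.33 ± 0.0736, from a vehicle median of 60.2 CPM to 49.5 CPM. The glucose transporter gene Slc2a1 fell by 0.27, and Aldoa, Pfkl, Pkm, Gpi1, Tpi1, Hk2 and Ldha, which encode enzymes of glycolysis, fell by 0.29, 0.24, 0.22, 0.21, 0.19, 0.18 and 0.17. Pgk1 (-0.23, adjusted p = 0.0523), Eno1 (-0.22, adjusted p = 0.0662) and Gapdh (-0.24, adjusted p = 0.132) missed the threshold.

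Of 18 genes induced by hypoxia, which include targets of Hif1a, 4 fell and none rose, and the 18 log2 fold changes lay below 0 with a median of -0.17. Ankrd37 fell by 0.42 ± 0.0816, from 25.8, 33.3 and 44.6 CPM in vehicle to 13.6, 26 and 33.2 CPM in agonist samples. The gene of the peptide hormone adrenomedullin, Adm, fell by 0.41 ± 0.102, the prolyl hydroxylase gene P4ha2 by 0.29 and Ndrg1 by 0.18. Vegfa, at -0.19, was not called (adjusted p = 0.0792). Hif1a itself, chosen after its values were seen, rose by 0.2 (adjusted p = 0.0451), and by 0.11 with the GC trend removed.

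The number of calls in both lists changed with the samples left out. Without number m1, m2 or m3 none was called in either list, in fits that called 35 of 14587, 18 of 14554 and 19 of 14569 genes lower. With each sample left out in turn, between 0 and 14 glycolysis genes and between 0 and 14 hypoxia genes were called lower, the most without the norepinephrine sample of m4. Their medians stayed between -0.26 and -0.18 and between -0.21 and -0.14. The fit without the norepinephrine sample of m4 called 1718 of 14540 genes lower. With the GC trend removed together with the ribosomal RNA split, a choice made after the data were seen, 0 and 2 were called. None was called in either list without the replicate block, and 3 and 1 with the ribosomal RNA split. With the GC trend removed 7 and 4 were called, and Hk1 (-0.27), Slc2a1 (-0.22), Pkm (-0.15) and Ndrg1 (-0.17) were no longer among them. The UK14,304 sample of m3 had the lowest agonist levels of Hk1, at 30 CPM, and of P4ha2, at 17.9 CPM.

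Txnip, whose product binds thioredoxin and limits glucose uptake, was higher in every agonist sample than in any vehicle sample. It had 377, 393 and 404 CPM in vehicle and 426, 472 and 540 CPM in agonist samples. It rose by 0.28 ± 0.0452 (adjusted p = 0.00334), with differences of 0.29, 0.28, 0.25 and 0.3 in m1 to m4. Without number m1 its log2 fold change was again 0.28 with an adjusted p of 0.0556. The other 3 genes of its list were not called.

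Of 20 genes of cholesterol synthesis and uptake 9 fell and none rose, with the 20 log2 fold changes below 0 and a median of -0.13. The largest of the 9 was Mvd, the mevalonate decarboxylase gene, which fell by 0.23 ± 0.0485 from a vehicle median of 159 CPM to 131 CPM. Fdps fell by 0.19, Insig1 by 0.16, Dhcr7 and Mvk by 0.15, Lss and Fdft1 by 0.14 and Srebf2, the regulator of the pathway, by 0.13. The gene of the enzyme Hmgcs1 (-0.02) was not called. Between 1 and 12 of the 20 were called lower when single samples were left out. The count was 0 without m1, m2 or m3, in fits that called 35, 18 and 19 genes lower over all tested genes. It was also 0 without the replicate block, 1 with the ribosomal RNA share as covariate or as a split, and 15 with the GC trend removed. In the last fit Mvd was at -0.15, Mvk at -0.09 and Srebf2 at -0.06, and Srebf2 was not called. The fit with 12 calls left out the norepinephrine sample of m4 and called 1718 of 14540 genes lower.

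**Figure D4:**
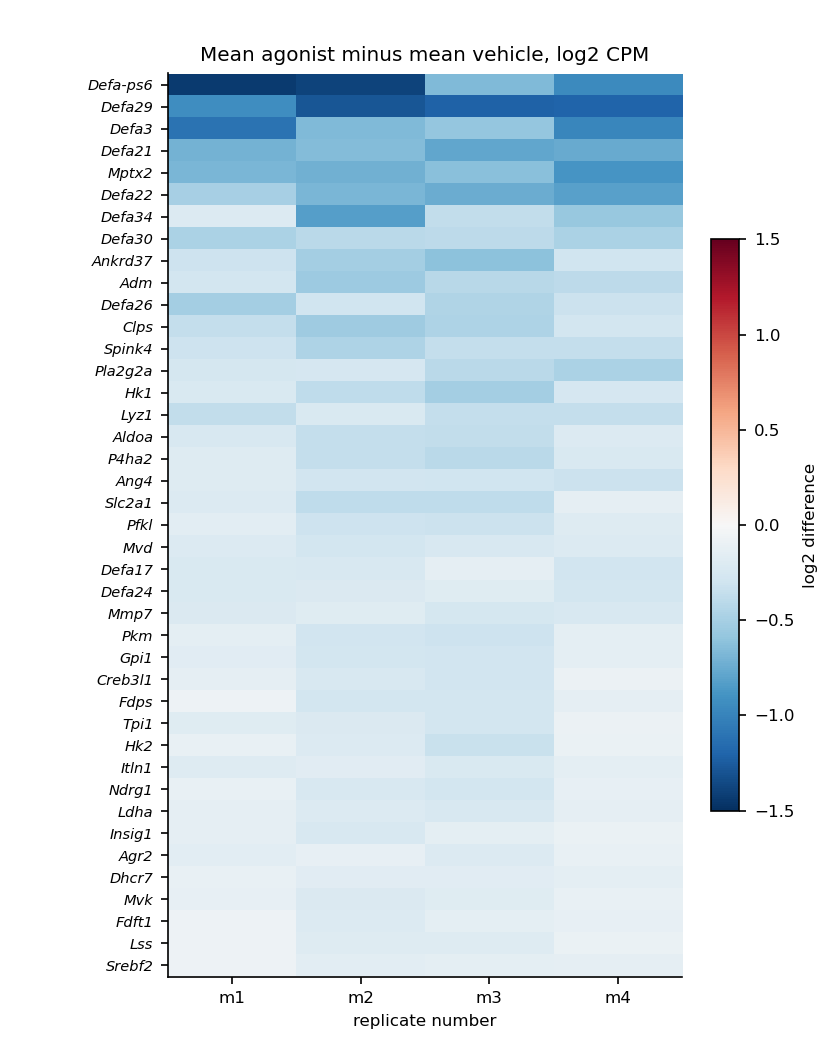
Mean agonist minus mean vehicle log2 CPM (colour) in the numbers m1 to m4 (columns) for called members of the Paneth, goblet, glycolysis, hypoxia and cholesterol lists with a log2 fold change of -0.13 or lower (rows). The rows run from the largest fall to the smallest, with the lists mixed. Every cell is below 0, from -1.44 in Defa-ps6 at m1 upward, and differences of the glycolysis, hypoxia and cholesterol genes are mostly larger in m2 and m3 than in m1 and m4.

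Among immediate early genes, which respond fast to growth factors, Junb, Ier3 and Srf fell and none of the 14 rose. Junb, an AP-1 subunit, had 53.6, 61.4 and 78.8 CPM in vehicle and 34.4, 49.4 and 61.7 CPM in agonist samples and fell by 0.38 ± 0.0607 (adjusted p = 0.00357). Ier3 fell by 0.4 ± 0.0761 and Srf, the factor that binds the CArG box, by 0.17 ± 0.0384. Srf was at -0.08 and not called with the GC trend removed, and its call was also lost with the ribosomal RNA split. Fos (0.08), Jun (0.07) and Egr1 (0.16) were not called. Areg, the amphiregulin gene, was the 1 of 13 genes of ERK feedback and ErbB ligands that was called, with a fall of 0.26 ± 0.0515 (adjusted p = 0.013). Atf4, a factor of the integrated stress response, fell by 0.21 (adjusted p = 0.00988), as 1 of 10 in its list, and the 10 lay below 0 with a median of -0.21. Of single calls in further lists, the clock gene Nr1d1 fell by 0.19 (0.12 with the GC trend removed), Anxa3 by 0.31 and Cox7a1 by 0.18. Rps10 fell by 0.6 at levels of at most 5 CPM and has pseudogene copies.

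Acta1, the skeletal α-actin gene and one with a CArG box upstream, had the largest fall of any called gene over 10 CPM outside the defensin cluster and Mptx2. Its level was 18.1, 27.9 and 31.3 CPM in vehicle and 13.1, 18.5 and 24 CPM in agonist samples. The vehicle samples that reached into the agonist range were those of m4. Acta1 (chr8:123891769-123894751) fell by 0.6 ± 0.0627 (adjusted p = 9.73e-06), by 0.7, 0.6, 0.73 and 0.36 in m1, m2, m3 and m4. Larger falls by fold were those of genes with few counts: Jdp2 (-1.12 ± 0.233), Thpo (-1.02 ± 0.258), Gm49502 (-0.77) and Cish (-0.76), each with a vehicle median below 2.2 CPM. Sprr1a, which encodes a small proline-rich protein, fell by 0.55 ± 0.125, from a vehicle median of 7.9 CPM to 6.14 CPM.

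Among the rises with a vehicle median above 10 CPM, Nox1 had the largest fold, 1.36. Adcy1, an adenylyl cyclase gene, had 13.2, 17.2 and 19.1 CPM in vehicle and 17.3, 20.8 and 24.3 CPM in agonist samples. It rose by 0.33 ± 0.0505 (adjusted p = 0.00176, the lowest of the rises). Cyp2c29, a cytochrome P450 gene, rose by 0.3 ± 0.0492, the chloride channel regulator gene Clca3b by 0.22, Gimd1 and Hemgn by 0.3 and Fam13b by 0.24. Nox1, the epithelial NADPH oxidase gene, rose by 0.44 ± 0.101 (adjusted p = 0.0389), with agonist samples spread from 24 to 59.4 CPM around a vehicle range of 27.1 to 37.9 CPM. The call of Nox1 was lost with counts summed per number and arm, with the GC trend removed (0.39) and with the ribosomal RNA split, and it was made in 6 of 18 fits that left out a sample. Cyp2c29 was at 0.21 and not called with the GC trend removed.

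The largest rises by fold were in genes near the detection limit. Gm16215, which lies within the span of Clca3b on the other strand without sharing exon positions, had 0.201, 0.297 and 0.66 CPM in vehicle and 0.46, 1.04 and 2.07 CPM in agonist samples, and rose by 1.53 ± 0.354 (adjusted p = 0.038). Counting did not use strand, so reads of a gene and of a partner with shared exon positions on the other strand cannot be told apart. This concerns 82 of the 282 called genes. Among the rises it holds for Nox1, opposite Cstf2, Fam13b, opposite Pkd2l2, Gm16559 (0.69, not called with the GC trend removed), opposite Adh1, Gm15657 (0.63), opposite Heg1 and Muc13, Gm47528 (0.4), opposite Apoa4, Gm44103 (0.68), opposite Washc2, Txnip, opposite Gm15441, and Hif1a. Among the falls it holds for Junb, opposite Prdx2, Nr1d1, opposite Thra, Fdft1, opposite Ctsb, Thpo, opposite Chrd, and also for Jdp2, Hk1, Hic2, Ankrd37, Ndrg1, Tpi1, Aldoa, Gpi1, Slc2a1, Lss, Mmp7, Cish, Rps10 and Thbs1. Greb1l rose from a vehicle median of 1.12 CPM to 1.72 CPM without overlap (0.69 ± 0.129, adjusted p = 0.0107). Gm43314 (0.87), Ints6l (0.71), Asb4 (0.7), Gm45221 (0.61) and Gm12888 (0.42) rose at vehicle medians of 4.22 CPM or less.

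At the threshold itself, Mall (-0.1, adjusted p = 0.0499) and Gm44103 (0.68, adjusted p = 0.0499) were the last genes called, and Mgea5 (0.13, adjusted p = 0.0501) and Tnfaip1 (-0.1, adjusted p = 0.0502) the first not called. Over all tested genes 23.3% had an unadjusted p under 0.05.

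Each agonist was also set against its own vehicle in a model with 4 groups and the replicate block. Number m5, which held a sample of each agonist, entered the estimates of this model too. Norepinephrine against HCl gave 16 calls (0.11% of genes), 14 lower (0.0959%) and 2 higher (0.0137%), and UK14,304 against DMSO gave 178 (1.22%), 150 lower (1.03%) and 28 higher (0.192%). In m2 and m3 the ribosomal RNA share was higher in DMSO (2.61% and 3.06%) than in UK14,304 libraries (0.529% and 0.619%). Its part in the calls of UK14,304 against DMSO was not tested. For Defa29 the log2 fold change was -1.1 ± 0.115 with norepinephrine and -1.2 ± 0.114 with UK14,304. For Mptx2 it was -0.77 and -0.69, for Lyz1 -0.36 and -0.3, and for Acta1 -0.56 and -0.65. Txnip rose by 0.19 with norepinephrine and by 0.37 with UK14,304, and Reg3b by 0.31 and 0.28.

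Several genes of glycolysis and hypoxia passed the threshold in one of these comparisons. In a fit of norepinephrine and HCl alone, 0 glycolysis and 0 hypoxia genes were called lower, with medians of -0.14 and -0.11. With UK14,304 and DMSO alone 13 and 10 were called lower, with medians of -0.29 and -0.24. Over all tested genes these fits called 13 of 14476 and 309 of 14561 lower. Hk1 had -0.23 ± 0.0706 (adjusted p = 0.566) with norepinephrine and -0.44 ± 0.0708 (adjusted p = 0.00359) with UK14,304, and Ankrd37 had -0.27 and -0.58. Pla2g2a was called with norepinephrine (-0.48, adjusted p = 0.00265) and not with UK14,304 (-0.22, adjusted p = 0.131). The difference between the agonists' effects was tested directly and was called for 1 gene (0.00685%), with 383 genes at an unadjusted p under 0.05 and 23 called in DESeq2. This gene was Rbm3, which encodes a cold-inducible RNA-binding protein, at -0.04 ± 0.042 with norepinephrine and -0.43 ± 0.0421 with UK14,304. In the pooled comparison Rbm3 was not called (-0.23 ± 0.0758, adjusted p = 0.103). HCl against DMSO gave 0 calls in edgeR, with 256 genes at an unadjusted p under 0.05, and 22 calls in DESeq2.

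**Figure D5:**
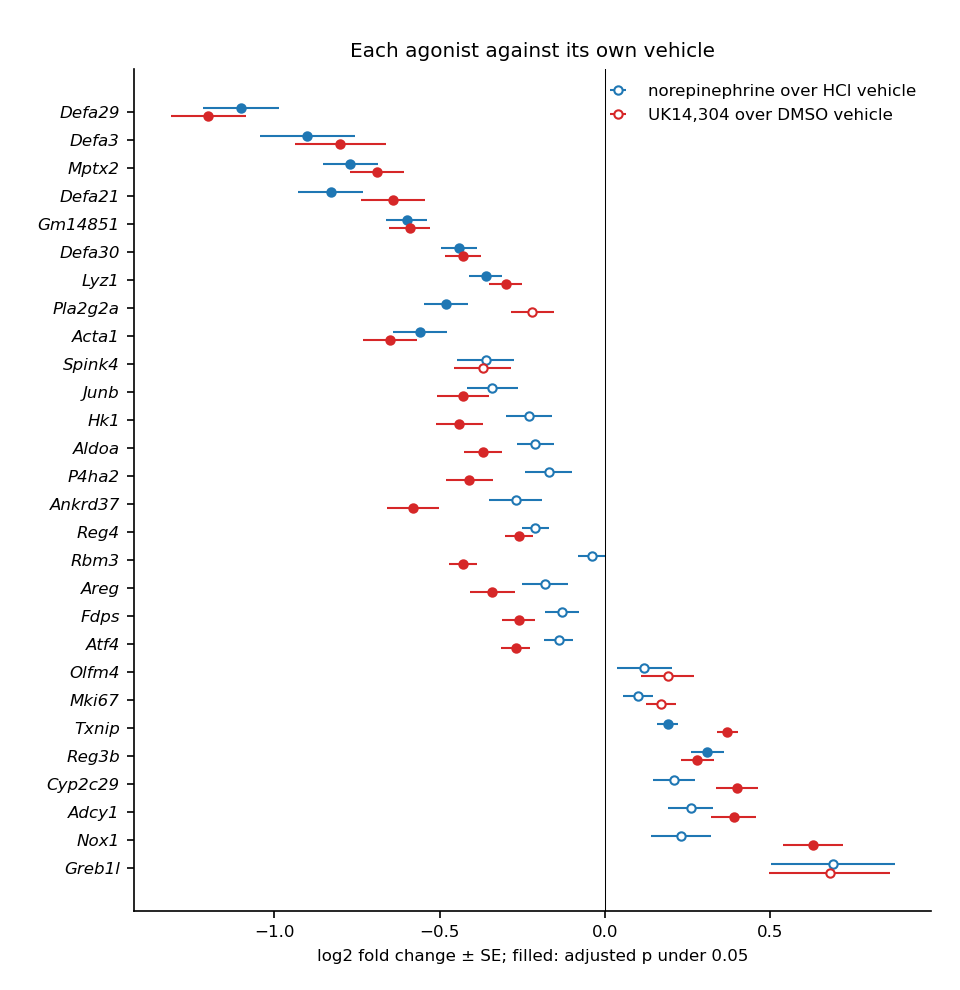
Log2 fold change ± SE (x) of 28 genes (rows) for norepinephrine over HCl (blue) and UK14,304 over DMSO (red), with filled points where the adjusted p is under 0.05. Defa29 lies at -1.1 and -1.2, and Rbm3 at -0.04 and -0.43 is the 1 gene whose difference between the agonists passed its test.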

How the data were processed

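Gene counts of all 18 samples were analysed. According to the submitters' processing notes and the study's methods, the authors checked reads with FastQC (0.11.8) and MultiQC (1.7), aligned single-end reads of 50 bp from KAPA mRNA HyperPrep libraries to GRCm38 with STAR (2.7.3), processed the alignments with SAMtools (1.9) and counted them with featureCounts of Subread (1.6.4). The header of the deposited count table names featureCounts 2.0.1 with Ensembl release 102, without strand and without reads that map to several places or genes. Symbols came from the reference tables for 55141 of 55487 genes.

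The deposited raw counts were tested with edgeR (4.0.16, R 4.3.3) using TMM factors, filterByExpr by arm and robust quasi-likelihood fits, with arm and replicate number in the model, and Benjamini-Hochberg adjustment over all tested genes. Samples were grouped by treatment label. CPM values use the TMM factors. On simulated counts for 14605 genes with this design, 100% of changes of log2 1 and 92% of changes of log2 0.5 were recovered, and 6.34% of 205 calls were unchanged genes. Changes were planted only at these sizes and not in genes with few counts. Genes were drawn independently, without GC or ribosomal RNA differences between single libraries. The called genes had a median size of 0.2, so these rates do not describe the real calls. The totals of 21866149 to 27850373 counts per library set the counting error, and low genes are read accordingly.

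Named genes were the 15 largest rises and falls by log2 fold change among called genes with one sign in m1 to m4, the 10 lowest p in each direction, the called members of the lists, 9 further genes (Olfm4, Lyz1, Tff3, Muc2, Bmi1, Mki67, Adra2a, Txnip and Rbm3) and the genes next to the threshold. The members, gene lists and rule were chosen with earlier results of these data known, and lists were described by counts and medians without a test. Ctgf and Cyr61 of the list of regenerative genes were not matched by symbol. Near copies and overlaps were sought in GENCODE M21 with blastn. Alternatives were DESeq2 (1.42.0), other normalization and filters, no replicate block, removal of GC and length trends by lowess, a ribosomal RNA covariate, and leaving out samples and replicate numbers. Some genes are not reported here.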

Additional observations from a re-analysis of the deposited data

Results flagged for a closer look

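Within the arms, 190 sets of values were tested for a sample far from its group, and 7 had one by Dixon's criterion at the 5% level, which chance alone gives in about 1 in 20 sets. The UK14,304 sample of m3 was the lowest agonist sample, apart from the others, for Ankrd37 (13.6 CPM, nearest 21.7), Hk1 (30 CPM, nearest 45), Hk2 (88.8 CPM, nearest 101) and P4ha2 (17.9 CPM, nearest 25.7). The norepinephrine sample of m4 was the lowest for Fam13b (52.1 CPM, nearest 64.1) and Mgea5 (133 CPM, nearest 148). The UK14,304 sample of m2 was the lowest for Asb4 (0.502 CPM, nearest 0.828).

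Rbm3 differed between the agonists, with a difference of -0.39 on the log2 scale between the UK14,304 and the norepinephrine effect (adjusted p = 0.0419 in edgeR). This call was lost without the replicate block and after removal of the GC trend.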

How the results depend on the processing

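Of the 84 named genes that were called, none changed sign in those of 39 alternatives that kept the gene (32 for Thpo). Among these, 81 missed the threshold in at least 1, the exceptions being Defa29, Defa3 and Defa-ps6. Over all 282 called genes 1 changed sign, Rbbp6, from 0.14 to -0.01 with the GC trend removed. The genes were called from these same samples, so a kept sign follows largely from the selection and is no separate support. Adra2a, which was not called, changed sign to 0.04, 0.02, 0.01, 0 and 0.02 after GC removal with and without the block, without replicate 4 (-0.08 without replicate 2), with UK14,304 and DMSO alone and with GC removal plus the ribosomal RNA split. For the pooled agonist effect, counts of called genes (all, genes higher with agonist, genes lower with agonist) were 282, 78 and 204. They were 801, 249 and 552 in DESeq2, which shared 277 genes, 13, 5 and 8 with no replicate block, 1501, 781 and 720 without a filter, 3669, 1821 and 1848 with counts summed per number and arm (3 residual degrees of freedom), 662, 279 and 383 with the GC trend removed and 22, 10 and 12 with it removed and no replicate block. With the ribosomal RNA share as covariate they were 82, 14 and 68, with it as a split 89, 15 and 74, with norepinephrine and HCl alone 15, 2 and 13, with UK14,304 and DMSO alone 525, 216 and 309, at an adjusted p under 0.01 39, 5 and 34, and at a size of at least 0.5 25, 9 and 16. Chosen after seeing the data, the 11 libraries under 1% ribosomal RNA (7 agonist, 4 vehicle) gave 3552, 1788 and 1764, and the GC trend with the split gave 312, 119 and 193. Leaving out a sample or number gave 21 to 3865 calls, 2 to 2147 higher and 18 to 1718 lower. The extremes were number m2 or m3 (21) and the norepinephrine sample of m4 (3865), and most single samples moved the count by over 1.5 times. The cause was not tested.

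Norepinephrine alone gave 16 calls, 0 with no replicate block, 31 with the GC trend removed and 79 in DESeq2. The UK14304 effect gave 178, then 6 and 634 with no replicate block and the GC trend removed. The difference between the agonists gave 1, then 0, 0 and 23, and that between vehicles gave 0, and 22 in DESeq2. Same-numbered samples of different groups deviated together on average (mean r of 0.295 over 25 pairs, lowest -0.249) against -0.0763 for other pairs, and 14 of 18 samples correlated best with their own number, so pairing by number is a hint and not a design. Depth limits the genes near 1 CPM.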

Other observations

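Single falls outside the lists, chosen after their values were seen, are given here. Plaur, the urokinase receptor gene, fell by 0.48 ± 0.0729 (adjusted p = 0.00176 from edgeR) and Plat, the tissue plasminogen activator gene, by 0.33 ± 0.0841 (adjusted p = 0.0451). Lamb1, a laminin subunit gene, fell by 0.47 ± 0.0696 (adjusted p = 0.00136). Plaur and Lamb1 were called with each of the 18 samples left out, and Plat in 4 of 18. Thbs1 fell by 0.36 and Cldn4, a tight junction gene, by 0.41 ± 0.0641 (adjusted p = 0.00334).

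Single rises outside the lists, also chosen after their values were seen, were those of Prkdc (0.21, and 0.14 with the GC trend removed), Neil3 (0.25 and 0.16), Cenpe (0.18 and 0.1) and Brca1 (0.14 and 0.1), with adjusted p between 0.0327 and 0.0451 from edgeR. These 4 were called with the GC trend removed, and not with the ribosomal RNA split or without the replicate block. The called rises had a median gene length of 5826.5 bases against 2921 for the called falls and 3994 over tested genes. Slc26a3, a chloride exchanger gene, rose by 0.17 and Slc6a19, an amino acid transporter gene, by 0.15, and both calls were lost with the ribosomal RNA split.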
